A study of Mus musculus with 10 samples.

Results

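The genes of mouse chromosome 9 were followed along the chromosome in 10 cell lines grown out of a mouse non-neuroendocrine small cell lung cancer (SCLC), 5 of them called Mes and 5 called Epi by the study. A gene was included when the deposited annotation placed its probe on chromosome 9 and the scanning software called that probe well above background on all 10 arrays, with the brightest probe standing for a gene that had several. This left 689 of the 1223 gene symbols with a probe on the chromosome (56.3%), out of 12190 genes over the whole genome under the same filter. Of the other symbols, 328 had no probe above background on any array. Another 43 were above it on all Mes but not all Epi arrays, and 17 on all Epi but not all Mes arrays. The remaining 146 were above it on part of the arrays, and on all arrays of neither group. Such counts were not made over the other chromosomes, and nothing is read from them. The chromosome had been selected because its genes were known to differ between the groups, so its median, its counts and its direction are descriptions and carry no test of their own. Each line began as 1 clone picked from a tumour with the genotype RbL/L, Trp53L/L, which all lines share. The lines were untreated and grew in RPMI1640 with 10% fetal bovine serum. Total RNA was labelled with Cy3 and hybridised to 1-colour Agilent arrays, 1 array for each line. The labels do not say whether the clones came from 1 tumour or from several, so that the p-values measure the spread between these lines only.

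How and in which cells those alleles were recombined is not given in the sources used here. RB and p53, the products of the genes named in that genotype, restrain entry into the cell cycle and respond to DNA damage, and both are commonly lost in human SCLC. Non-neuroendocrine SCLC cells lack the neuronal and endocrine secretory programme that most cells of this tumour carry. Mouse chromosome 9 holds genes of many unrelated pathways, among them the checkpoint kinases of the DNA damage response, receptors of the TGF-beta and activin family, collagens, small heat shock proteins and inflammatory caspases. Of the 689 genes, 670 were matched to RefSeq by Entrez ID, and RefSeq placed 1 of these, Rps27, on another chromosome. For Iqcf1, the spot was flagged on 1 array and the fit used the other lines. Between 60.4% and 64.5% of the probes of an array were above background, and no spot used was saturated. The 10 mesenchymal markers examined were above background on all 10 arrays. Their means were lower in the Mes lines for Vim, Fn1, Cdh2, Zeb1, Col1a1, Acta2 and Pdgfrb, and higher for Zeb2, Snai2 and Twist1. Col1a1 averaged 5.01 ± 0.92 in the Mes lines and 12.41 ± 2.99 in the Epi lines (SD, n = 5 each). Epcam, Ocln and Esrp1, which define epithelial cells, were above background on no array. Cdh1 was above background on 0 of 5 Mes arrays and 3 of 5 Epi arrays, and Krt8 on 0 of 5 Mes arrays and 4 of 5 Epi arrays. Of the other epithelial markers, Krt18 was above background on 4 of 5 Mes arrays and 5 of 5 Epi arrays, Krt19 on 2 and 5, and Cldn7 on 4 and 4.

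Promoter windows of 4 genes are shown because they stand at different places of the profile described below: Slco2a1 and Il18 were lower in the Mes lines, Col5a3 was far higher, and Topbp1 was higher as part of the DNA repair genes. Each window runs from 250 bases before to 50 bases after the gene's start, 5′ to 3′ on the gene's strand, from RefSeq on build GRCm38.p6. Capitals mark GGGCGG, which is the core of a GC box. They also mark the letters of the TATA box core TATAAA, and both were searched on either strand. GGGCGG lay in 35.9% of the promoter windows of all 27025 genes in the table and TATAAA in 14.2%.
Slco2a1, chr9:103008237-103008536, + strand: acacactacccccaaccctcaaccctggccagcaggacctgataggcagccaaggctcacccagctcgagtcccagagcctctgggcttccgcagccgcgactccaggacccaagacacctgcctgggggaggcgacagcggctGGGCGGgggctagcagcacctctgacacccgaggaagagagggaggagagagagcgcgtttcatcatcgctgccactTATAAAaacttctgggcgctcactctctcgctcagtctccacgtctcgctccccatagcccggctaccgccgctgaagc
Il18, chr9:50554450-50554749, + strand: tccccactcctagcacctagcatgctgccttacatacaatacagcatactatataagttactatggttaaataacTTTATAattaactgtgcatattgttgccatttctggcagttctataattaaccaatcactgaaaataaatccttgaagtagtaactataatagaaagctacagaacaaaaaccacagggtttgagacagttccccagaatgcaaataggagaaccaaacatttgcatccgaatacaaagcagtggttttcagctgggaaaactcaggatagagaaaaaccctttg
Col5a3, chr9:20815018-20815317, − strand: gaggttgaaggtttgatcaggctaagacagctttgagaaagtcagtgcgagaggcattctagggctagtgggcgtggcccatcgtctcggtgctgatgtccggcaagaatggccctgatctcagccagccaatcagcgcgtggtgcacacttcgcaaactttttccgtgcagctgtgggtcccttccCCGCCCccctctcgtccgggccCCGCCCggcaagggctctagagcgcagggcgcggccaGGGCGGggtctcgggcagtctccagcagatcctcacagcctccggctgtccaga
Topbp1, chr9:103305077-103305376, + strand: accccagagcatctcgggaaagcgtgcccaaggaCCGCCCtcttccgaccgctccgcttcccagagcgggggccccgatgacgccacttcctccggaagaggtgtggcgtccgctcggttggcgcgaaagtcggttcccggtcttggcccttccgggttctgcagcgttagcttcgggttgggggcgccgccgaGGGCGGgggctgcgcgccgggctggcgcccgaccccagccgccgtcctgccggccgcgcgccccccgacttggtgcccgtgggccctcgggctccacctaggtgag
The windows of Topbp1, Col5a3 and Slco2a1 held 38, 20 and 18 CpG dinucleotides, and that of Il18 held 1. GGGCGG was found 3 times in Col5a3, 2 times in Topbp1 and 1 time in Slco2a1. Il18 and Slco2a1 each held TATAAA 1 time. A match is a stretch of letters and does not show that a factor binds there.

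Values are log2 of the background-subtracted signal after quantile normalization, and a difference is the mean of the Mes lines minus the mean of the Epi lines. Over the 689 genes the median difference was 0.71, a 1.64-fold higher signal in the Mes lines, and the middle 50% of genes lay between 0.31 and 1.02. The difference was above 0 for 586 genes (85.1%). With limma and Benjamini-Hochberg adjustment over all probes above background, 414 genes (60.1%) were called higher at an adjusted p under 0.05, where 15.5% of all 12190 genes were called higher. Only 12 genes (1.74%) were called lower, where 12.2% of all genes were, and 263 were not called. In RNA from whole cultures, more cells with a transcript and more of it per cell cannot be told apart. For 361 genes (52.4%) the lowest Mes line exceeded the highest Epi line, against 10.3% of all genes. For 8 genes (1.16%) the highest Mes line was under the lowest Epi line, against 7.83% of all genes. These shares follow from how the chromosome was selected, and nothing is read from them. The typical change was modest: 172 genes were called higher by at least 2-fold, and 10 were called lower by at least 2-fold.

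**Figure D1:**
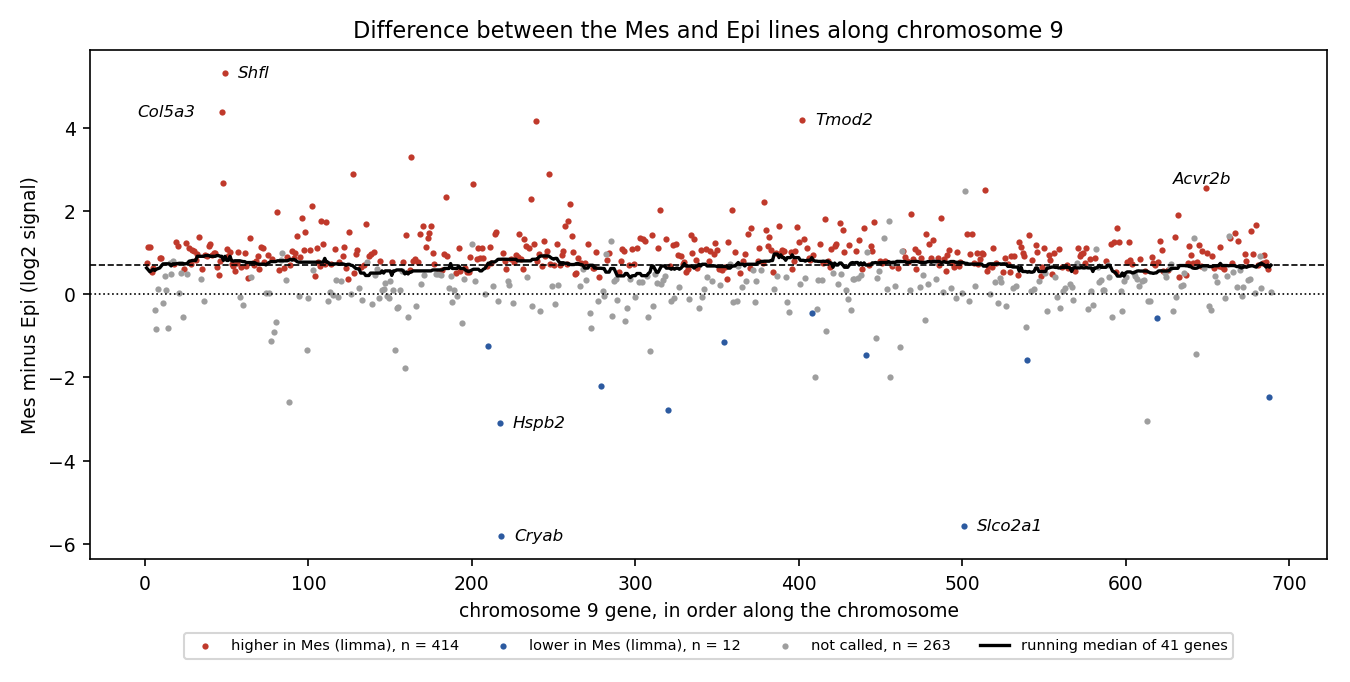
Each point is 1 of 689 chromosome 9 genes, placed on the x axis by its order along the chromosome, with the Mes minus Epi difference in log2 signal on the y axis. Red points were called higher in Mes, blue points lower and grey points neither (limma). The black line is the running median of 41 genes, the dashed line the median of all members at 0.71, and the dotted line 0. The black line stays above 0 from end to end, while Cryab and Slco2a1 lie near −6 and Shfl, Col5a3 and Tmod2 above 4.

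The shift was nearly equal in the 5 Mes lines. Against the mean of the Epi lines, the median over the 689 genes was 0.63 in Mes1, 0.72 in Mes2, 0.69 in Mes3, 0.74 in Mes4 and 0.69 in Mes5, a mean of 0.69 ± 0.04 (SD, n = 5). Each Epi line set against the other Epi lines gave medians of 0.09 in Epi1, −0.03 in Epi2, 0.00 in Epi3, −0.04 in Epi4 and −0.01 in Epi5. No Mes line came near the Epi lines by this measure. Between 81.0% and 86.5% of the genes were above the Epi mean in a Mes line, and between 67.5% and 71.8% exceeded all 5 Epi lines. The arrays lay on 3 slides, with Mes1, Mes2 and Mes5 on 1 slide, Epi1, Epi3, Epi4 and Epi5 on another, and Mes3, Mes4 and Epi2 together on the third. Within the slide that held both groups the median difference was 0.73 and 83.0% of genes were above 0, so the shift was as large there as over all arrays. With 2 Mes and 1 Epi array, that slide alone gave 0 calls in limma, with 296 of the 689 genes at an unadjusted p under 0.05. With slide as a fixed block, limma called 3 genes higher and 0 lower, with 324 at an unadjusted p under 0.05. The other slides each held 1 group, so this difference also comes from Mes3, Mes4 and Epi2 alone and is no separate check. Over all members, 631 of 689 had the same sign on that slide as over all arrays, of which that slide's arrays are part.

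**Figure D2:**
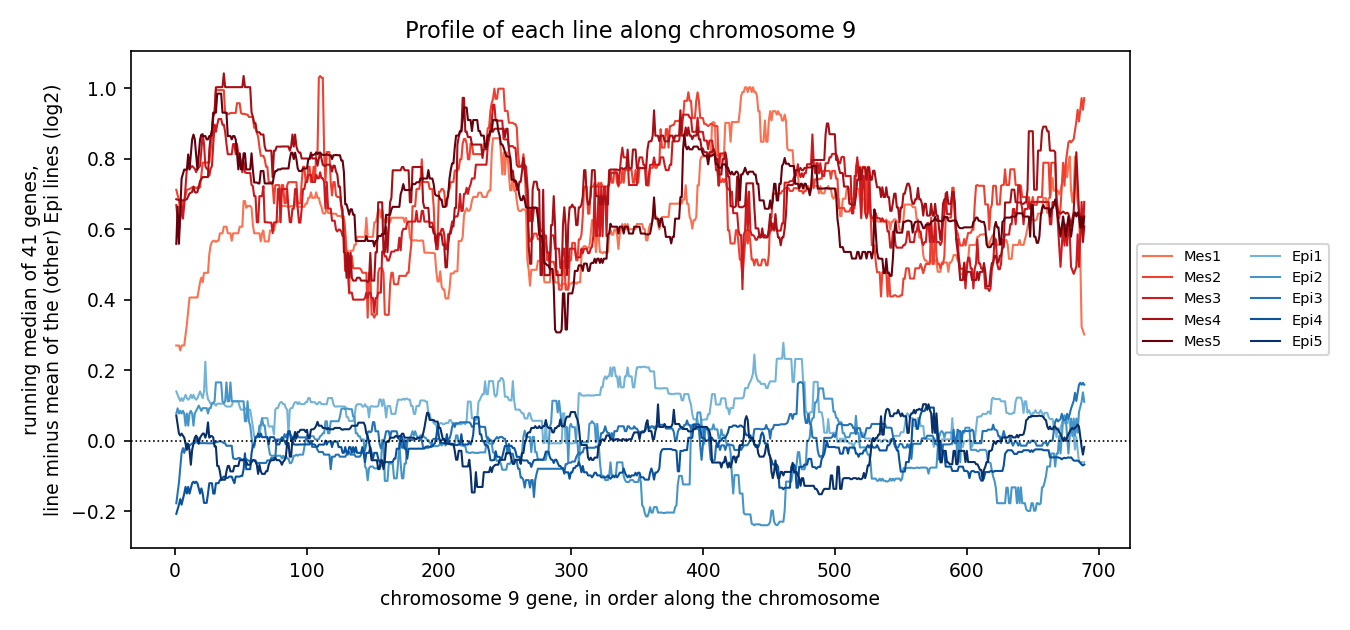
Each line is the running median of 41 chromosome 9 genes in 1 cell line (log2, y axis) along the gene order (x axis), relative to the mean of the Epi lines, or of the other Epi lines for an Epi line. The 5 Mes lines (red) run between 0.26 and 1.04 and the 5 Epi lines (blue) between −0.24 and 0.28, and at all 689 positions every Mes line lies above every Epi line.

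Along the chromosome the median difference was above 0 in every window of 10 Mb. In 13 windows of 10 Mb the median ranged from 0.54 to 0.83, and in the 12 windows with at least 20 genes from 0.58 to 0.83. The lowest value came from the first window, which held 15 genes, 7 of them called higher. Within it, the 10 genes between 5 and 10 Mb, from Casp1 to Arhgap42, had a median of only 0.11, with 2 called higher and 60% above 0. Their median was −0.15, 0.12, 0.27, 0.03 and 0.41 in Mes1 to Mes5, against −0.34, 0.33, −0.35, −0.30 and 0.53 in Epi1 to Epi5, so the groups overlapped in this stretch. They also overlapped over the 8 genes between 90 and 95 Mb, from Adamts7 to Dipk2a, of which 2 were called higher. There Epi1 was at 0.61, against 1.27, 0.49, 0.46, 0.56 and 0.62 in Mes1 to Mes5, although the median difference was 0.71. The highest window median came from the window of 10 Mb starting at 20 Mb on build mm9, where 56 of 72 genes were called higher. The share of genes above 0 in a window of 10 Mb ran from 73.3% to 91.9%. The longest stretches of neighbouring genes above 0 counted 21 genes, from Zfp317 to Raver1 and from Hinfp to Ube4a. The longest stretches at or below 0 counted 3 genes, and 1 of them was Dixdc1, Hspb2 and Cryab. Mes1 departed from the other Mes lines in part of the windows. From 80 to 90 Mb the median of Mes1 was 0.99, whereas Mes2, Mes3, Mes4 and Mes5 had 0.51, 0.43, 0.66 and 0.76 there. From 0 to 10 Mb and from 10 to 20 Mb, Mes1 was instead the lowest Mes line, at 0.27 and 0.52.

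The shift was also seen at all signal strengths, though less in dim genes. When the genes were ordered by mean signal and cut into 4 groups of 172 or 173, the median difference was 0.37 in the dimmest group and 0.74, 0.75 and 0.74 in the others. Of the 312 genes with several probes above background, 300 (96.2%) had all probes on 1 side of 0. Kbtbd3 and Syncrip had probes called in opposite directions, so the sign of either gene depends on the probe.

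Set beside the rest of the genome, chromosome 9 had a shifted centre and a similar spread. Its interquartile range was 0.71, and that of the 10173 genes off chromosomes 4, 9 and 10 was 0.67 around a median of −0.01. The chromosomes most like it in size of shift were chromosome 4, with a median of 0.54 over 759 genes, and chromosome 10, with −0.46 over 569 genes. The difference lay between 0.5 and 1 for 37.7% of chromosome 9 genes, against 12.8% of all other genes, and above 1.5 for 6.39%, against 1.88%. None of these differences was tested, because the chromosome was chosen on them.

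**Figure D3:**
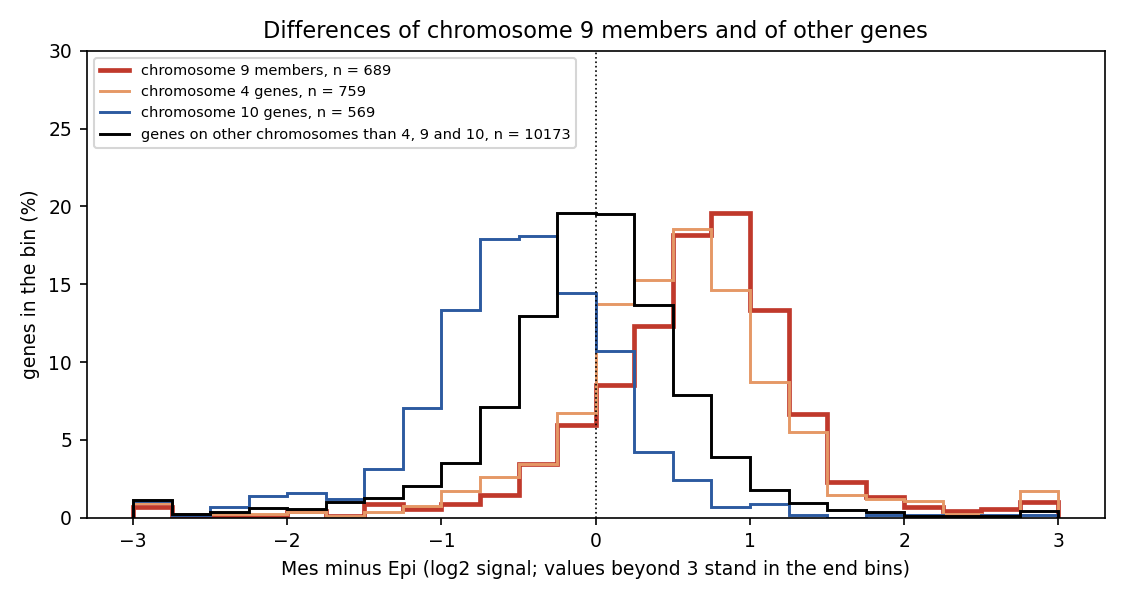
The x axis is the Mes minus Epi difference in log2 signal in bins of 0.25, and the y axis the percentage of genes in a bin, for 689 chromosome 9 genes (red), 759 chromosome 4 genes (orange), 569 chromosome 10 genes (blue) and 10173 genes of the other chromosomes (black). The red curve peaks between 0.75 and 1 and the black one around 0.

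Many ordinary genes sat close to the chromosome's median. Differences within 0.5 of it were found for 439 genes (63.7%). Rps25, a protein of the small ribosomal subunit, had log2 signals of 16.81, 16.81, 16.94, 16.97 and 16.84 in Mes1 to Mes5, against 16.18, 16.15, 16.15, 16.08 and 16.15 in Epi1 to Epi5. The lines of a group were nearly identical and the groups did not overlap, with a difference of 0.73 ± 0.11 (SE) and an adjusted p of 0.0013 in limma. Nfrkb, a subunit of the INO80 chromatin remodelling complex, had 9.02, 9.20, 8.97, 9.14 and 9.14 in Mes1 to Mes5, against 8.49, 8.69, 8.21, 8.30 and 8.20 in Epi1 to Epi5. All Mes lines were again above all Epi lines, and the difference was 0.72 ± 0.13 (SE), adjusted p = 0.0038. Snx14, a sorting nexin, differed by 0.70 with an adjusted p of 0.0079.

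To find genes that did not follow the chromosome, each array's median deviation over a gene's own chromosome was subtracted and limma was fitted again over 12161 genes. Of the 689 genes, 103 stood above their chromosome's median shift (14.9%, against 12.7% of all genes) and 111 stood below it (16.1%, against 13.2%). All 103 above it were also called higher in the plain comparison. Of the 111 below it, 77 had a difference at or under 0 and 34 had a difference above 0 but smaller than the chromosome's. A further 308 genes were called higher and did not depart from the chromosome's median by this test, which does not show that they equal it.

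Shfl, whose human counterpart is an interferon-induced inhibitor of viral translation, had the largest rise among genes whose groups did not overlap. Its log2 signals were 7.13, 10.99, 11.32, 10.22 and 9.67 in Mes1 to Mes5, against 6.44, 4.18, 4.17, 3.72 and 4.29 in Epi1 to Epi5. Mes1 was the lowest Mes line and Epi1 the highest Epi line, still apart, and the difference of 5.30 ± 0.76 (SE) corresponds to 39.5-fold (adjusted p = 0.0012). Col5a3, a chain of the fibrillar collagen type V, had 9.02, 8.56, 7.81, 10.10 and 9.45 in Mes1 to Mes5, against 3.15, 4.39, 6.73, 4.21 and 4.63 in Epi1 to Epi5. Every Mes line was above every Epi line, with 20.6-fold higher signal (adjusted p = 0.0010). Tmod2, which caps the pointed ends of actin filaments, had 10.43, 10.42, 10.50, 10.28 and 10.56 in Mes1 to Mes5, against 7.90, 6.67, 8.26, 3.97 and 4.42 in Epi1 to Epi5. The Mes lines agreed within 0.11 (SD) whereas the Epi lines spread over 1.97 (SD), and the difference was 4.19 ± 0.75 (SE), adjusted p = 0.0031.

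Acvr2b, a type II receptor for activins and related ligands, had 6.23, 6.56, 6.18, 6.18 and 5.91 in Mes1 to Mes5, against 4.40, 3.15, 3.02, 4.0003 and 3.70 in Epi1 to Epi5. All 5 Mes lines were higher, by 5.9-fold (adjusted p = 0.00036). Isl2, a homeodomain factor of motor neurons, rose by 2.88, and Angptl6, a secreted angiopoietin-like protein, by 2.67. Nxpe4 rose by 2.65, the nucleotide hydrolase Nudt16 by 2.51, the membrane protein Tmem25 by 2.33, and Dmxl2, a regulator of the vacuolar proton pump, by 2.29, all on the log2 scale. Their adjusted p lay between 0.0010 and 0.0085, and all 10 genes with the largest separated rises also stood above the chromosome's median shift. The probes of Shfl, at chr9:20678667-20678726, and Angptl6, at chr9:20678326-20678385 on mm9, lie next to each other on opposite strands. Overlap between the 2 transcripts was not examined. The size of these folds depends on the background correction: with normexp the difference was 2.77 for Shfl, 1.97 for Col5a3, 2.75 for Tmod2 and 0.42 for Acvr2b, all still called higher.

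The 12 genes called lower ran against the chromosome. Cryab, a small heat shock protein that keeps unfolded proteins soluble, had log2 signals of 3.05, 2.97, 3.97, 5.63 and 5.24 in Mes1 to Mes5, against 8.19, 10.70, 10.81, 10.47 and 9.81 in Epi1 to Epi5. The groups were far apart, and the signal was 56.5-fold lower in the Mes lines (−5.82 ± 0.63 (SE), adjusted p = 0.00041). Hspb2, another small heat shock protein encoded next to Cryab, had 2.53, 3.81, 4.40, 5.17 and 5.08 in Mes1 to Mes5, against 6.22, 8.90, 7.12, 7.44 and 6.80 in Epi1 to Epi5. It was 8.56-fold lower, without overlap (adjusted p = 0.0035). Their probes lie at chr9:50564440-50564499 and chr9:50559211-50559270 on mm9, on opposite strands.

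Slco2a1, the transporter that carries prostaglandins into cells, had 4.26, 2.63, 2.96, 3.20 and 6.42 in Mes1 to Mes5, against 10.59, 11.52, 7.73, 8.53 and 8.97 in Epi1 to Epi5. The Mes5 line was the highest of the Mes lines and still below all Epi lines, and the signal was 47.6-fold lower in the Mes lines (adjusted p = 0.0014). Sema7a, a membrane-anchored semaphorin, had 6.47, 8.36, 7.81, 6.20 and 7.57 in Mes1 to Mes5, against 9.98, 8.92, 10.54, 8.78 and 9.26 in Epi1 to Epi5. It fell by 2.21 without overlap (adjusted p = 0.0061). Il18, a cytokine that is matured by caspases of the inflammasome, had 8.54, 8.14, 7.90, 8.30 and 9.05 in Mes1 to Mes5, against 9.72, 8.60, 9.98, 9.97 and 9.89 in Epi1 to Epi5. Epi2 lay below Mes5, so the groups overlapped, and the gene fell by 1.25 (adjusted p = 0.012).

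With normexp the difference was −2.87 for Cryab, −2.49 for Slco2a1 and −0.86 for Hspb2, all still called lower but with far smaller folds. Of the 12 genes called lower, 9 kept the call with normexp and all 12 kept the sign. Within the slide that held both groups, some differences were as large as over all arrays or larger: −5.90 for Cryab, −8.44 for Slco2a1, 6.59 for Shfl and 4.57 for Col5a3. Others were smaller there, at 1.20 for Angptl6, −0.50 for Il18, −0.81 for Tbx18, −0.35 for Aph1b, −0.21 for Fbxo9 and 0.91 for Cd109.

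Of the remaining genes called lower, Lctl, a klotho-like relative of lactase, fell by 2.78, and Cxcr6, the receptor of the chemokine CXCL16, by 2.47. Cish, a cytokine-induced inhibitor of receptor signalling, fell by 1.59, and Tbx18, a T-box transcription factor, by 1.47. Aph1b, a subunit of gamma-secretase, fell by 1.16, Trank1 by 0.57, and Fbxo9, an F-box protein of a ubiquitin ligase, by 0.46. Their adjusted p lay between 0.0061 and 0.044. The calls of Aph1b and Cish were lost on leaving out any 1 of 6 lines, at adjusted p of up to 0.102 and 0.0682. That of Fbxo9 was lost without any 1 of 7 lines, at up to 0.0896, and that of Tbx18 without Mes2 or Mes3, at up to 0.0513. Trank1 and Cxcr6 kept the call without any 1 line, but each lost it in 4 of all 26 alternative settings. Over these settings the difference ran from −0.74 to −0.064 for Trank1 and from −3.87 to −0.65 for Cxcr6. Cnn1, the smooth muscle protein calponin, was not called in the plain comparison (6.82 ± 1.26 in the Mes lines and 9.41 ± 2.02 in the Epi lines, SD, n = 5 each, adjusted p = 0.055) but stood below the chromosome's median, at −3.27 relative to it (adjusted p = 0.028).

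**Figure D4:**
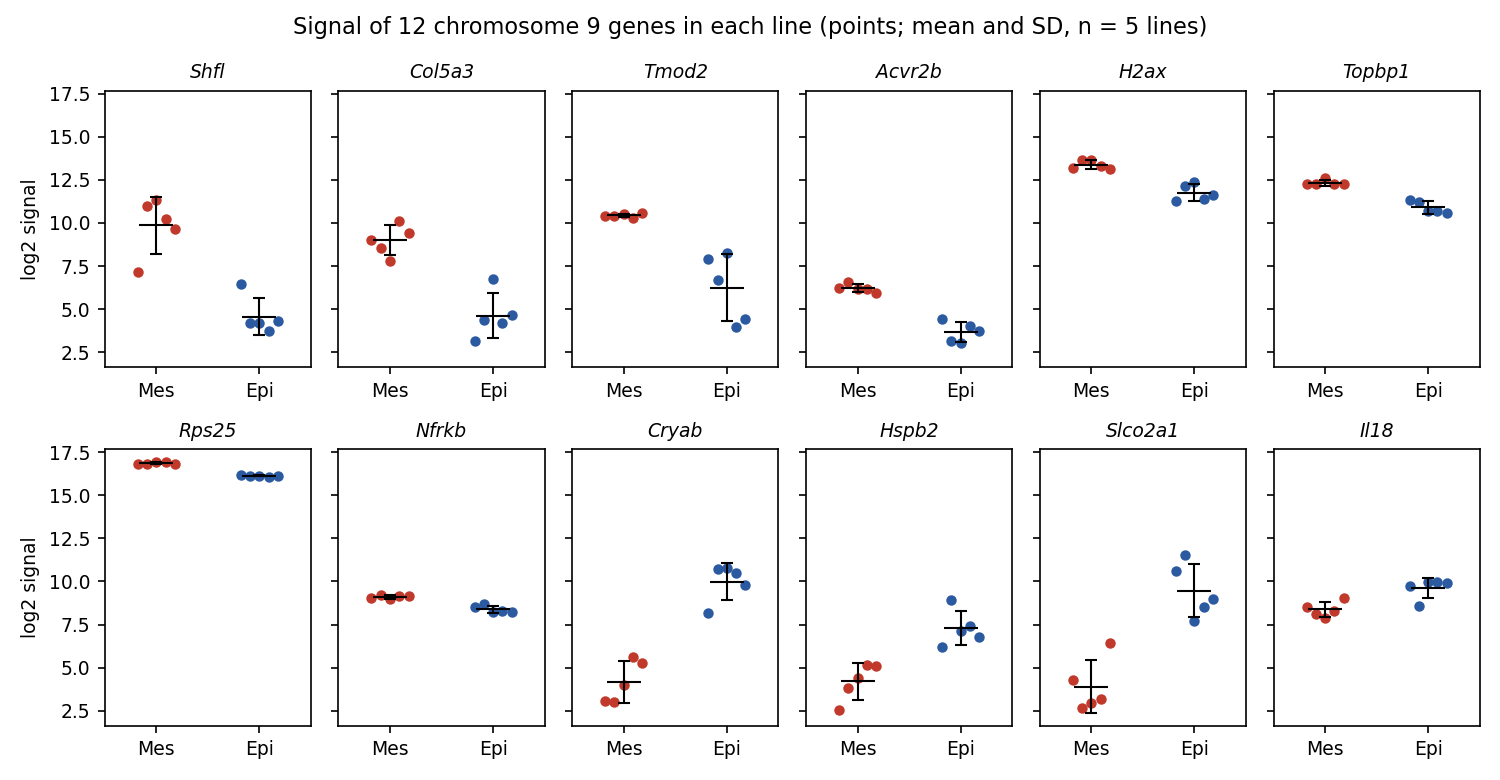
Log2 signal (y axis) of 12 chromosome 9 genes in the 5 Mes lines (red, left) and the 5 Epi lines (blue, right); points are lines, the black bar is the mean and the whiskers the SD (n = 5). Rps25 and Nfrkb differ by 0.73 and 0.72, near the chromosome's median, Shfl, Col5a3 and Tmod2 are higher in Mes by over 4, and Cryab and Slco2a1 are lower by over 5.

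Promoter windows were found for 567 of the 689 genes (82.3%). Genes that stood below the chromosome's median shift had a median of 16 CpG dinucleotides in the window (81 genes), against 22 in those above it (87 genes) and 22 in those that departed neither way (399 genes). TATAAA was present in 17.3% of the windows below, 4.60% of those above and 6.52% of the others. GGGCGG was present in 60.5%, 66.7% and 67.7%, and CCAAT, the core of the CCAAT box, in 48.1%, 39.1% and 41.4%, each counted on both strands. Over the windows of all genes in the table CCAAT was present in 37.9%. These shares are descriptions over genes and were not tested.

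Genes of many functions were among those called higher. The function lists below were chosen with earlier results of these data known, and their counts are set beside the 60.1% of all members called higher. A gene may stand in several lists, and only genes above background on all arrays are counted, such as 20 of 21 repair genes on the chromosome but 19 of 39 matrix genes and 22 of 40 interferon and immunity genes. Of 20 DNA damage response and repair genes, 17 were called higher and none lower, with a median difference of 1.03. H2ax, the histone variant that is phosphorylated at DNA breaks, had 13.21, 13.64, 13.66, 13.29 and 13.14 in Mes1 to Mes5, against 11.26, 12.16, 12.38, 11.38 and 11.62 in Epi1 to Epi5, a difference of 1.63 ± 0.23 (SE) with no overlap (adjusted p = 0.0011). Topbp1, an activator of the checkpoint kinase ATR, had 12.24, 12.28, 12.62, 12.27 and 12.27 in Mes1 to Mes5, against 11.35, 11.21, 10.70, 10.69 and 10.56 in Epi1 to Epi5, a difference of 1.43 ± 0.18 (SE) (adjusted p = 0.00066). Every Mes line was above every Epi line for both genes. Atm, the kinase that signals double-strand breaks, rose by 1.32, and Parp16, a mono-ADP-ribosyltransferase of the endoplasmic reticulum, by 1.41. Pias1, a SUMO ligase, was among those not called, at 9.83 ± 0.19 in the Mes lines and 9.56 ± 0.26 in the Epi lines. Above the chromosome's median shift stood 9 of the 20 genes, and below it 1.

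Of 24 cell cycle and mitosis genes, 20 were called higher and none lower, with a median of 1.13, and 12 stood above the chromosome's median shift and none below. Mns1, a structural protein of meiotic nuclei and cilia, rose by 2.20. Tfdp2, the partner of E2F factors in transcription of S-phase genes, rose by 1.92, Ncapd3, a condensin II subunit that compacts mitotic chromosomes, by 1.75, and Mapk6, an atypical MAP kinase, by 1.62, with adjusted p between 0.00023 and 0.0011. Cdc25a, the phosphatase that activates cyclin-dependent kinases, averaged 10.12 ± 0.22 in the Mes lines and 9.72 ± 0.25 in the Epi lines (SD, n = 5 each, adjusted p = 0.087). Of 36 chromatin and transcription regulators, 26 were higher and 1, Tbx18, lower (median 0.84). Sin3a, the scaffold of a histone deacetylase complex, rose by 1.75, the zinc finger protein Zbtb44 by 1.73 and Rfx7 by 1.36. Yap1, the transcriptional effector of the Hippo pathway, averaged 11.13 ± 0.26 in the Mes lines and 11.03 ± 0.61 in the Epi lines and was not called (adjusted p = 0.80), nor was Hmgn3, a nucleosome-binding protein, at 0.25.

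Of 20 ribosome and translation genes 17 were higher and none lower (median 0.73), and of 15 RNA processing genes 13 were higher and none lower (median 0.81). In the ribosome list 2 stood above the chromosome's median shift and 4 below, and in the RNA processing list 2 above and 1 below. Both lists hold Exosc7, a subunit of the RNA exosome, which rose by 1.66, Dhx30, an RNA helicase, by 1.26, and the pseudouridine synthase Pus3, by 0.95. Qars, the glutaminyl-tRNA synthetase, rose by 0.99, and Rbm15b, an RNA-binding protein of the m6A writer complex, by 0.99. Rplp1, a protein of the ribosomal stalk, averaged 17.76 ± 0.05 in the Mes lines and 17.48 ± 0.10 in the Epi lines and was not called (adjusted p = 0.082). Of 35 energy metabolism genes 20 were higher and none lower (median 0.76). Dlat, the E2 subunit of pyruvate dehydrogenase, averaged 12.62 ± 0.21 in the Mes lines and 11.12 ± 0.20 in the Epi lines (SD, n = 5 each, adjusted p = 0.00036). Idh3a, a subunit of a citric acid cycle dehydrogenase, rose by 1.19, and Foxred1, an assembly factor of respiratory complex I, by 1.14. Of 32 ubiquitin and protein turnover genes 22 were higher and none lower (median 0.63), with Cul5, a scaffold of ubiquitin ligases, up by 1.11 and Rnf214 by 1.11. Of 40 kinases, GTPases and other signalling genes 22 were higher and none lower (median 0.65). Pik3cb, a catalytic subunit of PI3-kinase, rose by 1.30, Map2k1, the MEK kinase upstream of ERK, by 1.17, and Nprl2, a subunit of the GATOR1 complex that restrains mTORC1, by 1.17.

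Of 25 actin, myosin and contractile genes, 12 were higher and none lower (median 0.72), and 4 stood above the chromosome's median shift and 5 below. Besides Tmod2, Tln2, which links integrins to actin, rose by 2.02, Clasp2, a microtubule plus-end protein, by 1.27, and Lactb, a filament-forming protein of mitochondria, by 1.25. Tpm1, a tropomyosin, and Rhoa, the small GTPase that drives contractility, were not called, at 0.72 and 0.17. Cnn1 and Tagln, also in this list, were not called either, at −2.58 and −0.69. Of 19 extracellular matrix genes, 5 were higher and 1, the membrane-anchored semaphorin Sema7a, was lower (median 0.31). In this list 7 stood below the chromosome's median shift and 1 above. Lamb2, a laminin chain, rose by 0.91 and Dag1, the matrix receptor dystroglycan, by 0.70, whereas the fibril-associated collagen Col12a1 averaged 11.60 ± 0.66 in the Mes lines and 12.48 ± 0.57 in the Epi lines (SD, n = 5 each) and was not called (adjusted p = 0.081). Of 27 adhesion and surface receptor genes, 11 were higher and 1, again Sema7a, was lower (median 0.35). Here 7 stood below the chromosome's median shift and none above. Mcam, an adhesion molecule of vessels and melanoma, had 11.14, 9.36, 11.26, 11.22 and 10.60 in Mes1 to Mes5, against 11.83, 7.94, 6.26, 6.87 and 4.15 in Epi1 to Epi5. Epi1 was the highest line of all, so the groups overlapped, and the call of 3.31 ± 1.12 (SE) (adjusted p = 0.049) was lost on leaving out any 1 line other than Epi1, at adjusted p of up to 0.107. Cd109, a membrane-anchored protein that binds TGF-beta, rose by 1.79. Ddx25 was called too (2.88), but it is known as an RNA helicase of germ cells and not as an adhesion molecule. Itga11, the alpha subunit of a collagen-binding integrin, averaged 12.19 ± 1.02 in the Mes lines and 13.54 ± 1.35 in the Epi lines and was not called (adjusted p = 0.14).

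Of 10 genes of TGF-beta and BMP signalling, 5 were higher and none lower (median 0.49). Next to Acvr2b, these included Rnf111, a ubiquitin ligase that removes inhibitors of the pathway, at 0.62, and Limd1, a LIM-domain adaptor, at 0.76. The 5 also included Ube2q2 (1.28), but it is known as a ubiquitin-conjugating enzyme and not as a part of this pathway. Tgfbr2, the type II receptor of TGF-beta, had 12.60, 13.15, 13.22, 13.17 and 12.63 in Mes1 to Mes5, against 12.47, 11.84, 13.07, 12.67 and 13.60 in Epi1 to Epi5. The groups overlapped and the gene was not called (0.22 ± 0.29 (SE), adjusted p = 0.61). Bmper, a secreted BMP-binding protein, averaged 9.45 ± 1.20 in the Mes lines and 10.79 ± 0.60 in the Epi lines (SD, n = 5 each, adjusted p = 0.077). Of 15 lipid and sterol genes, 5 were higher and none lower (median 0.43), among them Gpd1l, a glycerol-3-phosphate dehydrogenase, by 1.36, and Osbpl10, an oxysterol-binding protein, by 1.89. Faim (0.86) was counted among the 5 too, but it is known as an inhibitor of apoptosis and not as a lipid gene. The Osbpl10 call was lost on leaving out any 1 of 7 lines, at adjusted p of up to 0.0926. Scap, the escort of the sterol-sensing transcription factors, was not called, at 0.43.

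The interferon and innate immunity genes had the lowest median of the 15 lists. Of 22 genes, 5 were called higher and 3 lower, the median was −0.01, and 10 stood below the chromosome's median shift and 1 above. The genes called lower were Cxcr6, Cish and Il18, and Shfl was the one above the shift. Some genes of the list were dim, such as Cxcr6 (3.87 in the Mes and 6.34 in the Epi lines) and Cd3e (4.77 and 4.96), and others, such as Casp4, were bright. The dimmest group of all members had a median of 0.37. The part of signal strength in the median of this list was not tested. Casp4, an inflammatory caspase, had 11.67, 11.15, 9.88, 10.30 and 11.57 in Mes1 to Mes5, against 12.40, 11.75, 11.36, 11.48 and 11.72 in Epi1 to Epi5. Most Mes lines were lower, but the groups overlapped and the gene was not called (−0.83 ± 0.35 (SE), adjusted p = 0.10). Of 6 leukocyte markers, 3 were above background on all arrays and 1, Itgam, on none. Ptprc, which marks all leukocytes, was above it on 0 of 5 Mes arrays and 1 of 5 Epi arrays. Of 13 chaperone, stress and redox genes, 7 were higher and 2, Cryab and Hspb2, were lower (median 0.59). Hyou1, a chaperone of the endoplasmic reticulum, rose by 1.46, and Keap1, the adaptor that targets NRF2 for degradation, averaged 12.88 ± 0.10 in the Mes lines and 11.88 ± 0.20 in the Epi lines (SD, n = 5 each, adjusted p = 0.00088). Hspa8, the constitutive cytosolic HSP70, averaged 15.16 ± 0.49 in the Mes lines and 15.50 ± 0.10 in the Epi lines (SD, n = 5 each, adjusted p = 0.26) and stood below the chromosome's median, at −1.03 relative to it (adjusted p = 0.0091).

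**Figure D5:**
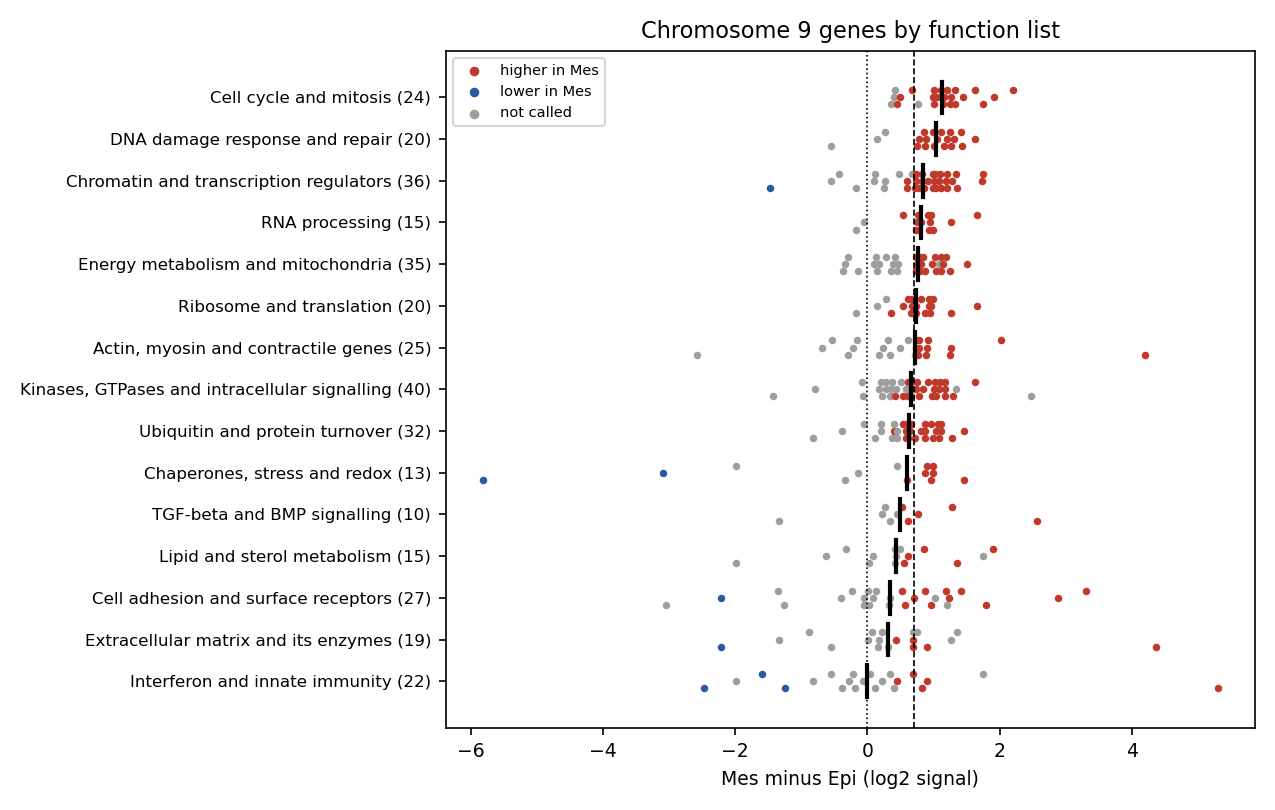
The y axis gives 15 function lists with their number of chromosome 9 genes, ordered by median, and the x axis the Mes minus Epi difference in log2 signal. Points are genes, red where called higher in Mes, blue where lower and grey where neither, and black bars are list medians; the dashed line marks the median of all members at 0.71 and the dotted line 0. Cell cycle and repair genes lie to the right of the dashed line by their medians of 1.13 and 1.03, and interferon and innate immunity genes centre on −0.01.

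Outside the 689 genes, 4 chromosome 9 genes were above background on all Mes arrays and on no Epi array, and no gene showed the reverse. The same count was not made over the other chromosomes, so nothing is read from this split. Because the Epi signal was not well above background, each fold is a lower limit, but only under the background subtraction used here. It is taken against a ceiling for the Epi lines. On each Epi array, the ceiling was the greater of the probe's own signal and the dimmest signal called above background. These 4 genes were not tried with normexp, which made the folds of Shfl, Col5a3, Tmod2 and Acvr2b smaller. Gsta4, a glutathione transferase for lipid peroxidation products, had 4.94, 8.72, 9.72, 8.52 and 8.57 in Mes1 to Mes5, against 1.35, 0.43, 0.66, 1.98 and 1.17 in Epi1 to Epi5. It was at least 47.7-fold higher in the Mes lines. Nmnat3, an enzyme of NAD synthesis, had 7.56, 8.30, 8.42, 3.15 and 8.01 in Mes1 to Mes5, against 1.36, 0.73, 0.25, 0.15 and 1.46 in Epi1 to Epi5. It was at least 23.7-fold higher, with Mes4 far below the other Mes lines. Fli1, an ETS transcription factor, was at least 7.22-fold higher, with Mes1 and Mes5 at 8.23 and 7.39 and the other Mes lines between 3.18 and 4.37. Ddx43, an RNA helicase of germ cells and tumours, was at least 6.62-fold higher.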

How the data were processed

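The arrays of 10 lines were used, 5 Mes and 5 Epi, as the sample titles give them. Per the file headers, the authors' scanner intensity values are Cy3 signals read by Feature Extraction, background-subtracted and detrended within each array, with probe positions on mm9; the deposited flags say whether a spot is well above background, saturated or an outlier. Per the labels, the authors used Feature Extraction 10.7 and quantile normalization in Gene Spring 11.0, which gave the deposited log2 table; it supplied gene symbols and positions here. Its annotation release is not given in the sources used here.

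From the intensities, control spots and flagged outlier spots were removed, spots of a probe averaged, arrays quantile-normalized, a floor of 1 set and log2 taken. Quantile normalization gives all arrays 1 distribution, so a difference is relative to the other genes. Probes above background on all arrays were fitted with limma 3.58.1 (R 4.3.3; lmFit, eBayes), adjusted by Benjamini-Hochberg, threshold 0.05. A second fit followed subtraction of each array's median deviation per chromosome. Both were tested on simulated data. Symbols were updated through RefSeq. Named genes followed a rule: the 10 largest separated changes per direction, all genes called lower, the 8 largest departures per direction from the chromosome's median, up to 4 called and 2 uncalled genes of each list, the gene nearest the median in each window, and genes above background in 1 group only. The text gives part of them. The members, lists and rule were chosen with earlier results of these data known. Replicate numbers do not pair the lines, since the deviations of same-numbered lines correlated at 0.00 to 0.05. Alternatives changed the scaling, background correction, source of values, dim-probe filter, floor, probe rule, slide, replicate block, variance model and lines included. Precision rests on 5 arrays a group.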

Additional observations from a re-analysis of the deposited data

Results flagged for a closer look

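Within the 5 lines of a group, 14 of 166 sets of values (8.43%) had a lowest or highest line far from the other lines, measured as the gap over the range; chance gives about 1 in 20. These belonged to Epi2 in 4 sets, Epi1 in 3, Mes1 and Mes4 in 2 each, and Mes2, Mes3 and Epi3 in 1 each. Among genes called between the groups, Topbp1 was 12.62 in Mes3, against 12.24 to 12.28 in the other Mes lines. Ddx25 was 6.69 in Mes4, with the other Mes lines between 9.58 and 10.13. Shfl was 6.44 in Epi1, against 3.72 to 4.29 in the other Epi lines, and Tbx18 was 10.91 in Epi1, against 9.01 to 9.54. Il18 was 8.60 in Epi2, against 9.72 to 9.98, and Fbxo9 was 10.30, against 10.59 to 10.63. Snx14 was 11.10 in Mes1, against 10.63 to 10.76 in the other Mes lines, and 9.67 in Epi2, against 10.07 to 10.22 in the other Epi lines. Pias1, which was not called, was 9.50 in Mes2, against 9.85 to 9.98. Among genes above background in the Mes lines alone, Gsta4 was 4.94 in Mes1, against 8.52 to 9.72, and Nmnat3 was 3.15 in Mes4, against 7.56 to 8.42. For Fli1, 1.46 in Epi3 and for Ddx43, 0.41 in Epi2 stood apart from the other Epi lines, both not well above background. The median of the chromosome 9 genes was 0.093 in Epi1, against −0.04 to 0.00 in the other Epi lines.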

How the results depend on the processing

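The median difference stayed above 0 in all settings tried. It was 0.65 with scaling to the 75th percentile, 0.52 with normexp background correction and 0.39 with no filter on dim probes, where 70.2% of genes were above 0. The lowest window median was 0.52, 0.26 and 0.050 in these settings, and the highest 0.64 with normexp and 0.70 without the filter. The lowest window was 0.48 with a floor of 16, 0.53 in the 16 windows of 5 Mb with at least 20 genes and 0.47 in windows of 40 genes, 0.52 on slides 1 and 3 alone and 0.52 with array weights, which gave a highest window of 0.87. With slide as a fixed block, and likewise on slide 2 alone, 83.0% of genes were above 0, windows ran from 0.45 to 0.95, and 3 and 0 genes were called higher and 0 lower, with 0 above and 0 below the chromosome's median. Genes called lower numbered 20 with probes above background in 1 group, 21 without a filter, 7 on slides 1 and 3 alone and 25 with array weights. Genes above the chromosome's median numbered 195 without a filter and 45 on slides 1 and 3, where 43 were below it. Leaving out 1 line gave 371 to 414 genes higher, 9 to 18 lower, 68 to 102 above and 79 to 116 below the chromosome's median, the 68 without Epi3 or Epi4. The median then ran from 0.68 to 0.72, the share above 0 from 83.7% to 85.8%, the lowest window from 0.50 to 0.59 and the highest from 0.80 to 0.86. Of the 12 genes called lower, 8 to 11 kept the call and all 12 the sign. Yap1 changed sign with slide as a block or slide 2 alone (−0.42), and ran from −0.067 without Epi1, with −0.005 without Mes3, to 0.28 without Epi2, Itga11 on slide 2 (0.40), and Tgfbr2 on slides 1 and 3 (−0.16) and without Epi2 (−0.0019), up to 0.44 without Epi5. The cause was not tested, except that slide 2 alone has fewer arrays and the other filters test more genes. With slide as a fixed block, the difference likewise comes from Mes3, Mes4 and Epi2 alone. A replicate block, tried although the numbers do not pair the lines, called 376 genes higher and 13 lower, with 69 above and 90 below the chromosome's median. No line correlated best with its own number. Of the dimmest genes, 40.5% were called higher and 69.9% were above 0; the part of signal over background in this was not tested.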
